A study of Mus musculus with 6 samples.

Results

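The cytosolic ribosomal protein genes were taken by symbol: every deposited feature named Rps or Rpl followed by a number, with an optional a, x or l ending, plus Rplp0, Rplp1, Rplp2 and Rpsa. This gave 83 genes of 31054 features, of which 32 encode proteins of the small (40S) subunit and 51 proteins of the large (60S) subunit. The rule uses symbols and no measured value. Single-cell transcriptomes of lungs from 6 male C57BL/6 mice of 21 months were compared, with 1 library per mouse and 3 mice per group. The mice labelled p16-DTR had the genotype p16-CreERT2/R26-LSL-DTR, and the control mice had p16-CreERT2 alone. The p16 promoter drives a tamoxifen-dependent Cre in both genotypes, and only the first has a diphtheria toxin receptor cassette at the Rosa26 locus for it to open. All mice were given tamoxifen on 5 days and, after a gap of 2 weeks, diphtheria toxin on 5 days; lungs were digested with liberase after a recovery of 2 weeks. Each library mixed 20000 sorted CD45- cells with 9000 CD45+ cells of the same lung, so the proportion of leukocytes to other cells was partly set by the sort.

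Ribosomal proteins form the ribosome together with ribosomal RNA, and their messenger RNAs are among the most abundant in a cell. Many of these messengers start with a C followed by a run of pyrimidines at the very 5′ end, the terminal oligopyrimidine (TOP) motif, through which mTOR signalling and the RNA-binding protein Larp1 control their translation. A few genes have paralogs with a narrower pattern of expression, such as Rpl3l in striated muscle, Rpl10l and Rpl39l in testis, and Rps27l, a target of p53. When ribosome assembly fails, free Rpl5, Rpl11 and Rpl23 can bind Mdm2 and stabilise p53.

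Sequences around the start annotated in RefSeq are shown for some of the genes described most often. RefSeq promoters of GRCm38.p6 were matched by symbol to 63 of the 83 genes, with 75 start sites; 20 genes had no entry in the table used. Each window below holds 15 bases before and 15 bases from the start, 5′ to 3′ on the gene's strand, and the capitals mark a pyrimidine run. A run was a C followed by at least 4 further C or T letters whose first base lay within 5 bases of the start; it was searched on the gene's strand only. Rps15a and Rpl12 had the largest differences between lymphocytes and endothelium among the abundant genes, Rpl31 had a small one, Rps27 and Rpl39 are shown beside their paralogs, and Rpl27 and Rpl3l recur in the comparison of the groups.
Rps15a, chr7:118116133-118116162, minus strand: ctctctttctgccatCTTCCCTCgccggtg
Rpl12, chr2:32961697-32961726, plus strand: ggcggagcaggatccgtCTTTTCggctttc
Rpl31, chr1:39367836-39367865, plus strand: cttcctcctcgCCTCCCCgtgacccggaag
Rps27, chr3:90213634-90213663, minus strand: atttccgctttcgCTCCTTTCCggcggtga
Rps27l, chr9:66946071-66946100, plus strand: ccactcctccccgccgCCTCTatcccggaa
Rpl39, chrX:37085208-37085237, minus strand: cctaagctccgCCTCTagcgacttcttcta
Rpl39l, chr16:10170213-10170242, plus strand: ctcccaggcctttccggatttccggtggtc
Rpl27, chr11:101442230-101442259, plus strand: acgctctgttcctgtctgctgctcgtgctg
Rpl3l, chr17:24727811-24727840, plus strand: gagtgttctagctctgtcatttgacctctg

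Of the 75 start sites, 31 (41.3%) had such a run near the start, against 18.3% of all 32851 RefSeq promoters of the same length and 22.7% of 75 promoters of mitochondrial ribosomal proteins. At 13 sites (17.3%) the first base of the transcript was itself a C followed by at least 4 further pyrimidines, whether or not the run began before it, against 2.51% of all promoters and at no promoter of a mitochondrial ribosomal protein. Where present, the run was 5 to 20 bases long, with a median of 8. The letters CCGGAAG, searched on both strands over the 300 bases, were found in 36% of these promoters, in 34.7% of those of mitochondrial ribosomal proteins and in 8.86% of all promoters. TATAAA, searched in the same way, was found in 9.33% and in 13.6% of all. Annotated starts can lie away from the start used in lung, so a window without a run says only that these letters are not there. Annotations also differ. The gene starts in GENCODE M21 of Rps15a (118116188), Rpl12 (32961559), Rpl39 (37085402) and Rpl27 (101442298) lie outside the windows printed above.

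Each library held 13482 to 17332 barcodes, with 254200305 to 344421685 UMIs (molecules counted once by their unique identifier) and medians of 16587.5 to 18149 UMIs per barcode. Of 94392 barcodes, 91156 were retained and 81361 of these (89.3%) were assigned to 1 of 32 cell types by marker genes that included no ribosomal protein gene. Cell type names below stand for these marker-gated cells. Between 59 and 94 barcode sequences were shared by any 2 of the 6 libraries. The check of the labels went against their direction: Cdkn2a, which encodes p16, reached 7.10, 8.57 and 7.31 CPM (UMIs per 1e6 UMIs of a library, or of a cell type in a library) in the p16-DTR-labelled libraries and 1.15, 2.60 and 2.84 in the controls. The tdTomato entry, which the labels place in neither genotype, had 89, 74 and 94 UMIs in the p16-DTR-labelled libraries and 0, 0 and 0 in the controls, and so separated the libraries into the labelled groups. Every direction given is for the groups by their labels.

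Together the 83 genes took 6.27%, 6.06% and 7.21% of all UMIs in the p16-DTR-labelled libraries and 5.53%, 5.65% and 6.26% in the controls. In this 3′ assay a transcript gives 1 UMI per captured molecule whatever its length, so levels of different genes can be set side by side, though capture can differ between genes. Most levels were high: 76 genes lay above 250 CPM, and the median over the 83 genes was 771 CPM. Among the most abundant were Rps24 (1529 CPM), Rpl13 (1443), the stalk protein gene Rplp1 (1428) and Rps16 (1215). At the other end were Rpl13a and the 6 paralogs: Rpl22l1 had 173 CPM, Rpl13a 143, Rps27l 111, Rpl7l1 45.3, Rpl3l 2.06 and Rpl39l 0.332, while Rpl10l had 11 UMIs in all 6 libraries. The counting settings are not given in the sources used here, and genes with near-identical copies elsewhere in the genome, Rpl13a among them, may have lost reads to those copies; 9 entries with -ps in their symbol, outside the rule, summed to 48.0 CPM. The 83 genes lie on 19 chromosomes, 4 of them on X.

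The share of UMIs from these genes ranged between cell types from 20.9% ± 1.61 (SD, n = 6 libraries) in CD8 T cells to 1.96% ± 0.811 in platelets or megakaryocytes. CD8 T cells lay between 18.3% and 23.1% in the 6 libraries, above every library of every other type. Type 2 innate lymphoid cells (14.9%), CD4 T cells (14.5%), both types of conventional dendritic cells (14.3% each) and B cells (14.1%) followed, and their ranges overlapped. Classical monocytes had 12.2%, below all B cell libraries, and then proliferating cells (11.5%), natural killer cells (10.6%), gamma-delta T cells (10.2%) and interstitial macrophages (9.35%) formed an unbroken series with nonclassical monocytes (8.85%), alveolar macrophages (8.55%), basophils (8.36%), plasma cells (8.35%), secretory cells (8.10%) and adventitial fibroblasts (7.54%). Every library of arterial endothelium (6.16%) lay below those of adventitial fibroblasts, though secretory and plasma cells reached into its range. It was followed by peribronchial fibroblasts (6.13%), alveolar type 2 cells (6.07%), mesothelial cells (5.52%), smooth muscle (5.39%), lymphatic endothelium (5.11%), venous endothelium (4.42%), neutrophils (3.84%) and general capillary endothelium (3.22%), each overlapping its neighbour. Ciliated cells (2.64%), alveolar fibroblasts (2.59%), aerocytes (2.52%), alveolar type 1 cells (2.27%), pericytes (2.05%) and platelets or megakaryocytes were the lowest. This order is one of pooled UMIs, in which deep cells count more. Averaged over cells, alveolar type 1 cells had 4.74% to 6.44% in the 6 libraries. General capillary endothelium had 3.35% to 3.67% in that measure, so the low place of alveolar type 1 cells depends on pooling.

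**Figure D1:**
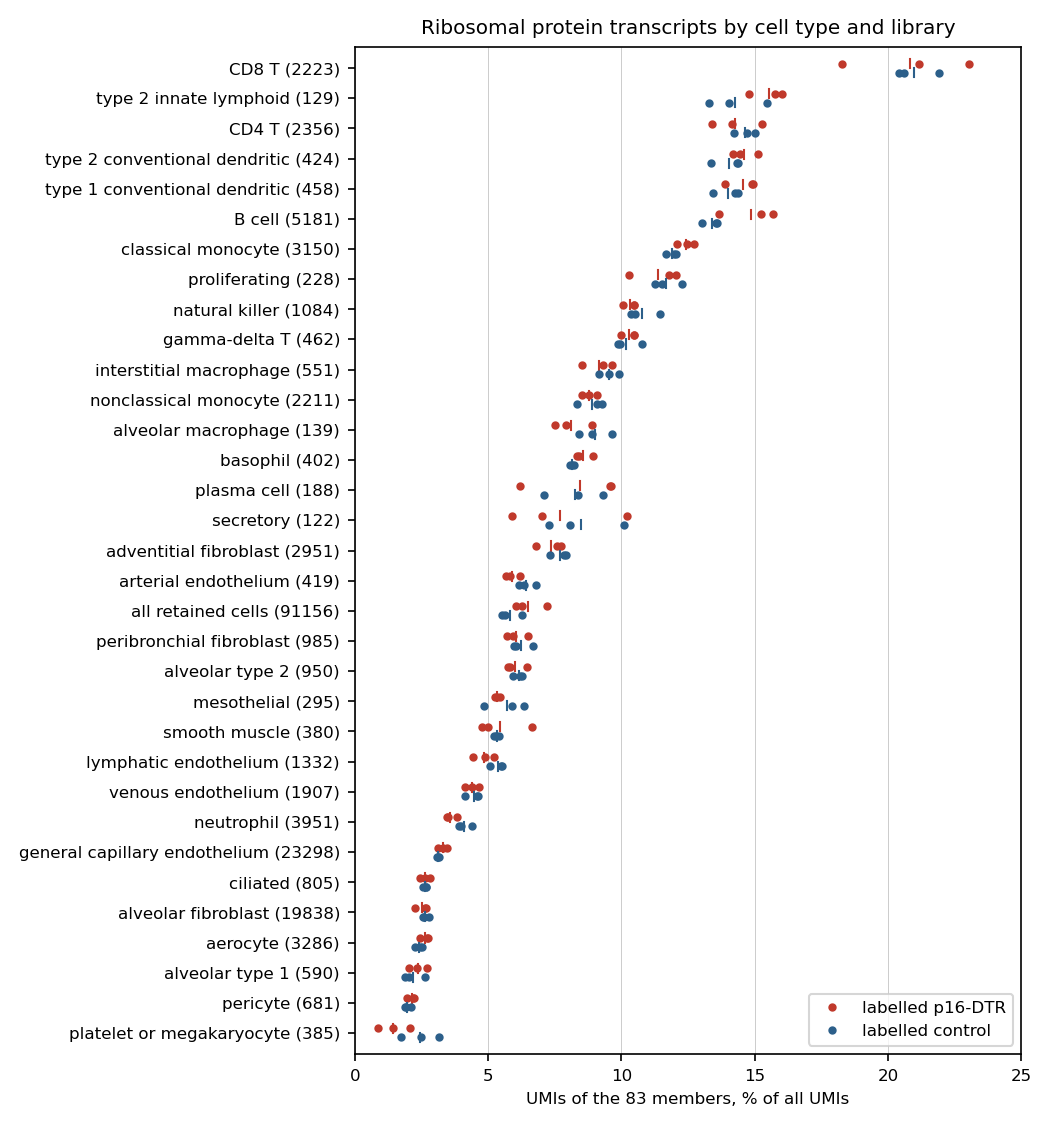
UMIs of the 83 ribosomal protein genes as a percentage of all UMIs (x axis) in each gated cell type and in all retained cells (y axis, number of cells in brackets); each point is 1 library, the short line is the group mean, red is labelled p16-DTR and blue is control. CD8 T cells sit between 18.3% and 23.1%, apart from all other types, and the 2 colours overlap in most types.

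Counted per cell, the order was different, since cell types differed in depth. A CD8 T cell held 3977 UMIs of these genes on average, but type 1 conventional dendritic cells held 5878, plasma cells 5687 and proliferating cells 5092. General capillary endothelial cells held 500 per cell and aerocytes 521, with median depths of 15578 and 21087 UMIs per cell. Neutrophils held 507, pericytes 302 and alveolar type 1 cells 231, the last at a median depth of only 1629 UMIs. Free RNA in droplets adds some UMIs of abundant genes to every cell type, and its part in the low shares was not tested.

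Levels of most of these genes followed each other across cell types. The correlation (Pearson) of a gene's log2 level with the summed level of the other 82, over 32 cell types that share libraries and depth, had a median of 0.98, and it exceeded 0.9 for 76 genes. CD8 T cells had the highest level of 71 genes. The 5 genes with a correlation under 0.7 were all paralogs: Rpl10l (-0.26), Rpl3l (0.10), Rps27l (0.12), Rpl7l1 (0.40) and Rpl39l (0.43). Rpl22l1 followed with 0.81 and Rpl41, which encodes a very short basic peptide, with 0.88.

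Lymphocytes and endothelium were compared directly, because both, over all their types, are large gated populations of every library. Neither gate used a ribosomal protein gene. Of the types used, arterial endothelium was small, with 419 cells and 47 in its smallest library. Lymphatic endothelium (share 5.11%) and gamma-delta T cells (10.2%) were left out, though their smallest libraries held 163 and 61 cells. B, CD4 T, CD8 T and natural killer cells were set against general capillary, aerocyte, arterial and venous endothelium with the library as a block, so that each mouse was its own control. Of 82 genes tested, 80 were higher in lymphocytes and 2 were lower (edgeR quasi-likelihood test, Benjamini-Hochberg adjusted p under 0.05), when 42.0% of all 14654 genes tested were higher and 45.0% lower. Rpl39l (higher) and Rpl3l (lower) reached the filter on low counts through 1 side alone, the side where each was high, so their calls carry no weight. Of the other 80 genes, 79 were higher and 1 was lower. Their median log2 difference was 1.90, against -0.04 for all genes. Small-subunit genes (31 higher, 1 lower, median 1.94) and large-subunit genes (48 higher, 0 lower, median 1.86) had like medians.

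The largest difference of an abundant gene was that of Rpl12, whose protein sits at the base of the ribosomal stalk: 2389 ± 163 CPM in lymphocytes against 361 ± 22.3 in endothelium (mean over types ± SD, n = 6 libraries), a log2 difference of 2.76 (standard error 0.03, edgeR adjusted p 6.07e-44). In lymphocytes the 6 libraries lay between 2102 and 2596, and in endothelium between 336 and 403. Rps15a reached 2977 ± 159 against 490 ± 19.7 (log2 difference 2.62), and Rpsa, whose protein was first described as a laminin receptor, 3004 ± 106 against 502 ± 15.6 (2.61). Rps7 reached 2227 ± 107 against 427 ± 16.2 (2.44). Of these 4 genes, Rps15a and Rpl12 had a pyrimidine run in the windows printed above, and Rpsa and Rps7 had none in theirs.

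Rpl31 was among the abundant genes that differed least. Rpl31, at the exit of the peptide tunnel, had 688 ± 49.5 CPM in lymphocytes against 374 ± 24.6 in endothelium (log2 difference 0.91). Rpl7l1, a relative of Rpl7, differed little, with 56.3 ± 1.60 against 49.6 ± 1.62 (0.17, edgeR adjusted p 5.79e-06), though it was higher in lymphocytes in 6 of 6 libraries. The paralog Rps27l was lower. It had 73.3 ± 4.56 in lymphocytes against 117 ± 6.85 in endothelium (-0.65, standard error 0.03, edgeR adjusted p 6.17e-21), while its parent Rps27 was higher (log2 difference 2.33). Rpl3l had 0.342 ± 0.174 against 0.936 ± 0.477 CPM, at 68 and 472 UMIs in all, and is described without a test. It was lower in 6 of 6 libraries, and in 4 alternatives (a stricter gate, and without the first control, the third control or the third p16-DTR-labelled library) it did not pass the filter on low counts.

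**Figure D2:**
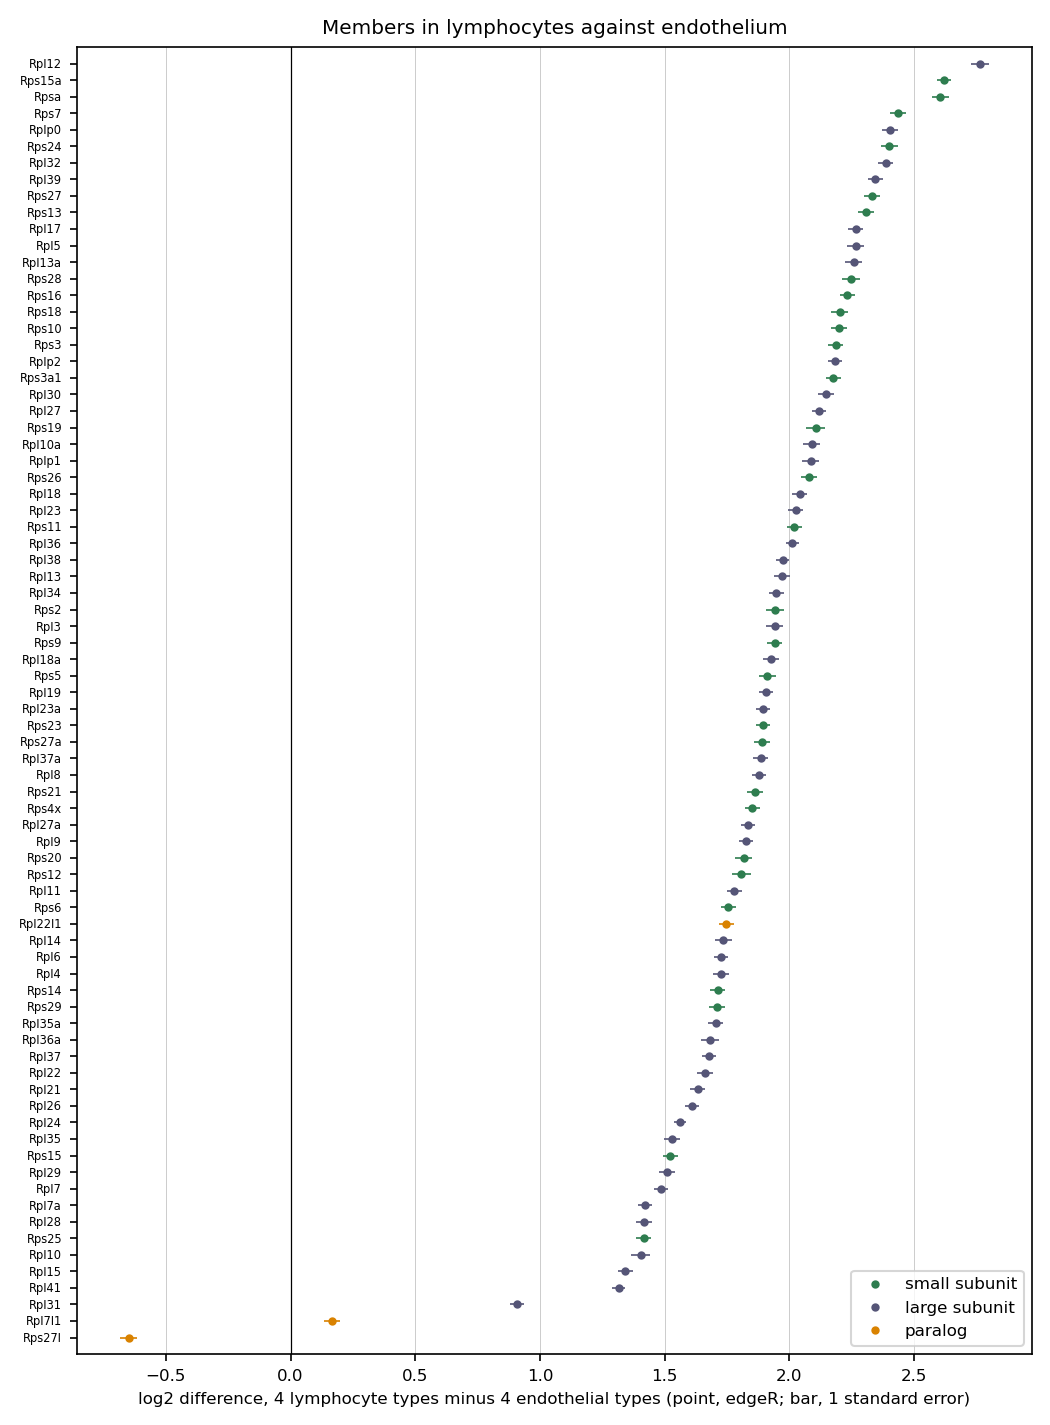
Log2 difference between 4 lymphocyte types and 4 endothelial types for 78 of the 80 ribosomal protein genes that passed the low-count filter on both sides (x axis; point from edgeR, bar 1 standard error), sorted on the y axis, with small-subunit genes in green, large-subunit genes in dark blue-grey and paralogs in orange. All shown but Rps27l (-0.65) lie to the right of 0, and Rpl12 (2.76) lies farthest to the right.

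Rpl39l was rare and is described without a test: it had 245 UMIs in the 4 lymphocyte types against 14 in the 4 endothelial types, a pooled ratio of 47.1 (95% exact interval 27.5 to 87.4, counting error only). With each type weighted equally it had 1.22 ± 0.691 CPM against 0.0924 ± 0.198 (SD, n = 6 libraries), a ratio of 13.2, and it was higher in lymphocytes in 5 of 6 libraries. Within lymphocytes it was highest in gamma-delta T cells, with 36 UMIs or 5.20 CPM (exact Poisson interval 3.64 to 7.19), followed by CD8 T cells with 152 UMIs or 3.57 CPM (3.02 to 4.18) and CD4 T cells with 48 UMIs or 1.32 CPM (0.972 to 1.75). The first 2 intervals overlapped. B cells had 42 UMIs or 0.522 CPM, and natural killer cells only 3 UMIs or 0.193 CPM. Outside lymphocytes, alveolar macrophages had 7 UMIs or 1.79 CPM (0.718 to 3.68) and interstitial macrophages 18 UMIs or 1.18 CPM. General capillary endothelium had 9 UMIs, or 0.0249 CPM. In CD8 T cells the libraries varied widely, with 2.02, 1.78 and 6.46 CPM in the p16-DTR-labelled libraries and 0.744, 2.19 and 3.62 in the controls, and the groups overlapped. Its parent Rpl39 had 3092 CPM in CD8 T cells and 1320 in gamma-delta T cells.

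The other paralogs followed the rest of the genes to different degrees, Rpl22l1 the most closely (correlation 0.81). Rpl22l1, which the related protein Rpl22 is known to repress, was highest in CD8 T cells (496 CPM), type 2 innate lymphoid cells (368), proliferating cells (363), CD4 T cells (356) and natural killer cells (335), against 92.8 in general capillary endothelium. Rps27l was highest in mesothelial cells (263), alveolar macrophages (250), ciliated cells (227) and type 1 conventional dendritic cells (218), and low in CD8 T cells (70.0), B cells (55.6) and neutrophils (54.2). Its parent Rps27 had 3118 CPM in CD8 T cells and 313 in ciliated cells. Across types Rps27 followed the other genes (correlation 0.96), while Rps27l was close to unrelated to them (0.12). Rpl7l1 stayed between 13.1 in platelets or megakaryocytes and 73.0 in B cells.

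Rpl3l, known from heart and skeletal muscle, was highest in some myeloid cells. Nonclassical monocytes had 20.4 CPM (range over libraries 16.8 to 26.5), alveolar macrophages 9.504, neutrophils 7.36 and classical monocytes 2.31, against at most 0.50 in B, CD4 T, CD8 T and natural killer cells. Adventitial fibroblasts (1.76) and alveolar fibroblasts (1.26) were near the classical monocytes, and basophils had 0.0721. The next gene on the same strand, Msrb1, starts 499 bases downstream and had 1657 CPM in neutrophils, 733 in classical monocytes, 702 in nonclassical monocytes and 18.9 in general capillary endothelium. Whether UMIs counted for Rpl3l came from the neighbour was not tested. Rpl10l had 9 of its 11 UMIs in ciliated cells (0.294 CPM, exact Poisson interval 0.134 to 0.557).

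**Figure D3:**
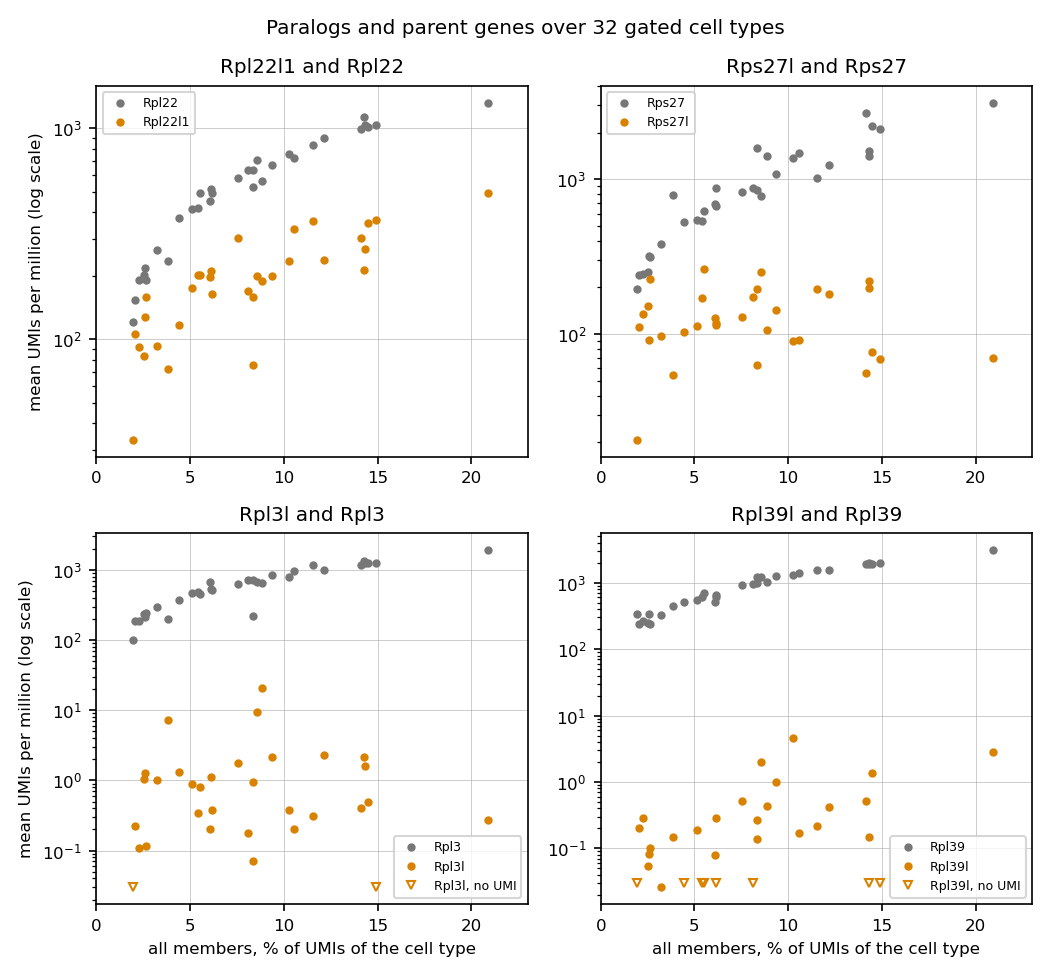
Mean CPM (y axis, log scale) of 4 paralogs (orange) and their parent genes (grey) in 32 gated cell types, against the share of UMIs taken by all 83 ribosomal protein genes in that type (x axis, %); open triangles mark types without a UMI. The parents climb with the share, Rps27l and Rpl3l do not, and Rpl3l peaks at 20.4 in nonclassical monocytes.

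The groups were compared first over all retained cells. None of 82 genes tested was called higher or lower by edgeR, in a comparison that called 0% of 21630 genes in either direction. At an unadjusted p under 0.05, 30 were higher and 1 lower, against 10.5% and 12.8% of all genes. DESeq2 called 9 higher and none lower (Rpl26, Rpl27, Rpl34, Rpl37, Rpl37a, Rpl38, Rpl41, Rps23 and Rps9), against 6.43% of all genes higher and 6.38% lower. The log2 fold change was above 0 for 81 of 82 genes, against 47.6% of all genes. Its median over the 82 genes was 0.21, against -0.01 for all genes, and this median was 0.14 without the third p16-DTR-labelled library. In 14 genes all 3 p16-DTR-labelled libraries lay above the 3 controls and in 1 gene below, against 8.58% and 22.5% of all genes.

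Rpl27, a large-subunit protein gene (ENSMUSG00000063316, GRCm38 chromosome 11, 101442298 to 101445529), had the smallest p. It reached 294, 278 and 311 CPM in the p16-DTR-labelled libraries and 206, 228 and 255 in the controls, so the groups did not overlap. The log2 fold change was 0.41 (standard error 0.09, edgeR adjusted p 0.130). Next came Rpl37 with 745, 737 and 822 against 648, 691 and 694 (0.23, adjusted p 0.153). Rps9 had 1098, 978 and 1187 against 904, 895 and 967 (0.29, adjusted p 0.163). Rpl37a had 867, 793 and 925 against 713, 765 and 769 (0.25, adjusted p 0.164), and Rps23 had 1020, 932 and 1094 against 858, 868 and 925 (0.25, adjusted p 0.168). In these 4 genes too the groups did not overlap, which gives an exact permutation p of 0.1, the smallest that 3 libraries against 3 allow.

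Leukocytes moved with this difference. Without platelets or megakaryocytes, they made up 28.8%, 30.7% and 35.7% of gated cells in the p16-DTR-labelled libraries and 22.7%, 25.6% and 25.9% in the controls, without overlap. Shares of ribosomal protein UMIs ranged among leukocytes from 3.84% in neutrophils to 20.9% in CD8 T cells. Over all retained cells the summed share was 6.51% ± 0.610 against 5.81% ± 0.388 (SD, n = 3 each), a difference of 0.6998 percentage points with overlapping groups. It was 0.353 without the third p16-DTR-labelled library and between 0.5597 and 0.926 without any other library. When every library was given the composition of the 6 libraries together, the shares were 6.25%, 5.62% and 6.17% against 5.97%, 5.97% and 5.91%, and the difference was 0.0627 with overlapping groups. This value rests on the second p16-DTR-labelled library, which lay below every control while the other 2 lay above: without it the difference was 0.2596, and without the first or the third p16-DTR-labelled library -0.0539 or -0.0177. This calculation was added after the data were seen, and the part of composition in the difference was not tested.

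Within cell types no ribosomal protein gene was called by edgeR. The 19 types with at least 50 gated cells in every library gave 1528 tests of these genes with 0 calls, in fits that called 0.267% of 227924 gene tests higher and 0.375% lower. At an unadjusted p under 0.05, 172 tests (11.3%) were higher and 36 (2.36%) lower, against 6.79% and 7.13% of all gene tests. DESeq2 called 22 higher and 3 lower in 7 types, against 1.22% and 1.48% of all gene tests. The median over these genes was above 0 in 9 types and below 0 in 10, and it lay between -0.15 and 0.19 on the log2 scale. Medians near 0 depended on the scaling. With library-size scaling the sign turned in alveolar type 2 cells (0.038 to -0.036), venous endothelium (0.0066 to -0.014) and gamma-delta T cells (-0.0087 to 0.012). With RLE scaling it turned in peribronchial fibroblasts (-0.0019 to 0.0025). Types share libraries, so they are not independent of each other. Nor are these genes, whose levels come from the same libraries and followed each other across types. Of all genes, between 48.0% (neutrophils) and 52.7% (alveolar fibroblasts) had a fold change above 0 in a type.

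**Figure D4:**
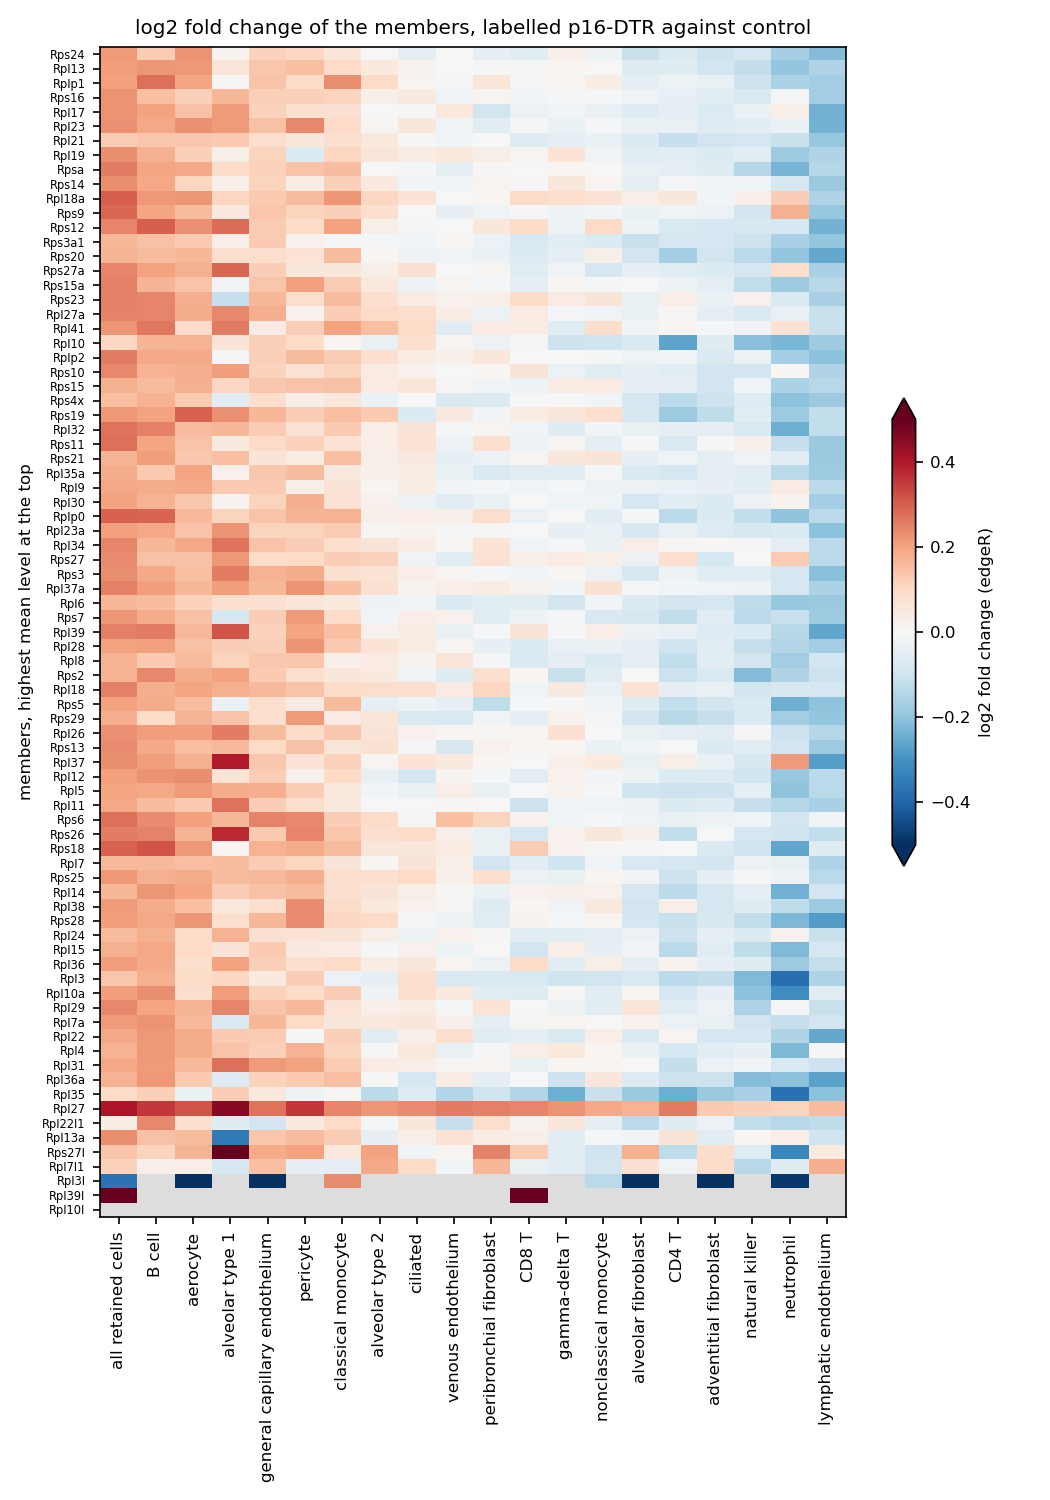
Log2 fold change, labelled p16-DTR against control (edgeR; colour scale from -0.5, blue, to 0.5, red; grey where not tested), of 81 of the 83 ribosomal protein genes (y axis, most abundant at the top) in all retained cells and 19 cell types (x axis, ordered by median). The columns run from mostly red in B cells (median 0.19) to mostly blue in lymphatic endothelium (-0.15), and the line of Rpl27 is red throughout.

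B cells had the highest median, 0.19, with a fold change above 0 for 80 of 80 genes, against 49.6% of all genes. The summed share was 15.7%, 13.7% and 15.2% in the p16-DTR-labelled libraries and 13.6%, 13.01% and 13.6% in the controls, and the groups did not overlap. Averaged over cells in place of pooled UMIs, the shares were 14.7%, 12.7% and 14.2% against 13.2%, 12.2% and 12.7%, and the groups overlapped. At an unadjusted p under 0.05, 49 genes were higher against 7.25% of all genes, and in 33 genes the groups did not overlap against 6.56%. DESeq2 called 9 (Rpl22l1, Rpl27, Rpl32, Rpl39, Rpl41, Rplp0, Rplp1, Rps12 and Rps18), against 0.723% of all genes. Rpl22l1 had 308, 329 and 331 CPM against 278, 268 and 298 (log2 fold change 0.24, standard error 0.06, edgeR adjusted p 0.245). Rplp1, which forms the stalk that binds elongation factors, had 3183, 2808 and 3131 against 2604, 2472 and 2693 (0.28, adjusted p 0.258).

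Capillary endothelium, alveolar type 1 cells, pericytes and classical monocytes also had medians above 0. In aerocytes the median was 0.16, 79 of 81 genes were above 0, 44 were higher at an unadjusted p under 0.05 (8.16% of all genes), 20 did not overlap upward (6.86%), and DESeq2 called Rpl13, Rpl23, Rpl27 and Rpl5 (1.40%). In general capillary endothelium the median was 0.13, 79 of 81 were above 0, 36 were higher at an unadjusted p under 0.05 (11.8%), and 21 did not overlap upward (9.25%). DESeq2 called 7 there, among them Rpl27, Rpl27a, Rpl31, Rpl5, Rpl7a and Rps6, against 4.08% of all genes. Rpl5 binds Mdm2 when free, and Rps6 is the substrate of S6 kinase. In alveolar type 1 cells the median was 0.13 with 69 of 80 genes above 0, but 0.01 without the first p16-DTR-labelled library, 0.07 without the first or the third control, and 0.29 without the second. Pericytes had a median of 0.12 with 76 of 80 above 0. Classical monocytes had a median of 0.10, with 22 genes higher at an unadjusted p under 0.05 (5.53%) and 24 without overlap upward (5.60%). Their summed share was 12.5%, 12.1% and 12.7% against 11.7%, 12.1% and 11.96%, with the lowest p16-DTR-labelled library (12.10%) just above the highest control (12.06%). Mitochondrial UMIs, a sign of RNA quality, were 2.37% against 2.25% in B cells, 1.48% against 1.29% in general capillary endothelium, 1.15% against 1.02% in aerocytes and 1.67% against 1.46% in pericytes (group means). In alveolar type 1 cells they were 1.89%, 2.09% and 1.85% against 1.28%, 1.61% and 1.45%, without overlap, and 10 of 12 mitochondrially encoded genes were higher there at an unadjusted p under 0.05 (median log2 fold change 0.45). In general capillary endothelium 9 of 13 were, with 13 of 13 above 0 and a median of 0.23, in aerocytes 4 of 13, in B cells 3 of 13, and in pericytes and classical monocytes 1 of 13 each; their part in these differences was not tested. With library-size scaling the median was 0.08 in general capillary endothelium and 0.06 in classical monocytes. The median of all genes moved down with it, to -0.05 and -0.04.

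Neutrophils, lymphatic endothelium and natural killer cells had the lowest medians. Smaller medians below 0 with few genes above 0 were found in adventitial fibroblasts (-0.06, 4 of 81), CD4 T cells (-0.06, 14 of 80) and alveolar fibroblasts (-0.04, 11 of 81). In neutrophils the summed share was 3.49%, 3.44% and 3.83% against 3.99%, 3.92% and 4.39%, without overlap, and in 46 of 81 genes all p16-DTR-labelled libraries lay below the controls, when 18.3% of all genes did so. Their median log2 fold change was -0.14, and 8 genes were lower at an unadjusted p under 0.05 (6.62% of all genes). The median was -0.07 without the third control and -0.03 with the stricter gate. Scaling by library size moved the median of these genes to -0.25 and that of all genes to -0.13, and averaging over cells in place of pooling their UMIs left a difference in summed share of 0.000347 percentage points. Lymphatic endothelium had a median of -0.15, with 3 of 80 genes above 0, 15 lower at an unadjusted p under 0.05 (6.35%) and 25 without overlap downward (8.56%); the median was -0.09 without the second p16-DTR-labelled library. Natural killer cells had a median of -0.07, with 6 genes lower at an unadjusted p under 0.05 (5.78%) and 20 without overlap downward (7.82%). The median of natural killer cells was -0.02 without the second control, and -0.11 without the third control or with the stricter gate.

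Rpl27 had small differences of 1 direction. It was higher in the p16-DTR-labelled libraries in 19 of 19 cell types, with log2 fold changes of 0.11 to 0.45 and a median of 0.24, and it was the only 1 of 80 ribosomal protein genes tested in all types to be higher in all of them. Of 6476 genes tested in all types, 0.602% were higher in all and 0.309% lower in all. In 14 types the groups did not overlap, a number reached by 5 of the 6476 genes (0.0772%): Pdpk1 (19 types), Kctd5 (17), Tsc22d3 (15), Rpl27 and Fkbp5 (14 each). Among the other genes taken by the symbol rule the largest number was 5, for Rplp2. Of ribosomal protein genes that the rule misses, Rpl36al had 11 such types and Rps27rt was higher in 19 of 19. Rpl27 was singled out after these values were seen.

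In general capillary endothelium Rpl27 had 159, 142 and 145 CPM in the p16-DTR-labelled libraries and 121, 128 and 132 in the controls (log2 fold change 0.27, standard error 0.06), and its edgeR adjusted p of 0.0612 was the smallest of any type. Aerocytes had 158, 139 and 145 against 122, 124 and 119 (0.32, adjusted p 0.0666). CD4 T cells had 797, 693 and 686 against 580, 594 and 616 (0.26, adjusted p 0.0901), and CD8 T cells 1090, 925 and 889 against 820, 817 and 816 (0.24, adjusted p 0.458). In neutrophils the groups overlapped, with 198, 186 and 193 against 177, 193 and 208, and the sign depended on the scaling. The first p16-DTR-labelled library was the highest of the 6 in every tested type but neutrophils. The gene next to it, Ifi35, 2878 bases downstream, was also higher in 19 of 19 types (median 0.18, 0 called by edgeR), and Rundc1 on the other side was higher in 7 of 18.

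**Figure D5:**
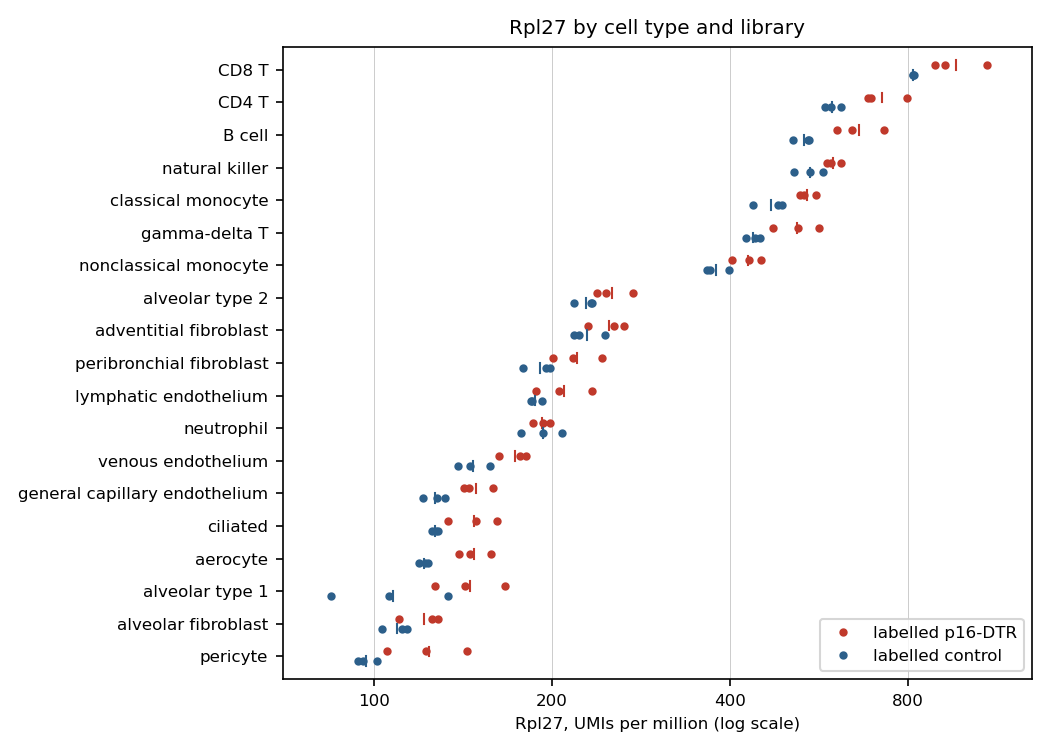
Rpl27 in CPM (x axis, log scale) in the 19 tested cell types (y axis, sorted by mean); each point is 1 library, the short line is the group mean, red is labelled p16-DTR and blue is control. The red means lie to the right of the blue in the type with the highest level, CD8 T cells (816 to 1090), and in the capillary types, while the colours mix in neutrophils (177 to 208).

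Rpl3l had lower values in the p16-DTR-labelled libraries, at low counts, and was not called. Of 7 types in which it was fitted, it was lower in 6 and the groups did not overlap in 5. The controls, where it was high, can pass the filter on low counts alone, so these numbers of types carry no weight. In alveolar fibroblasts it had 0.434, 0.744 and 0.541 CPM in the p16-DTR-labelled libraries and 2.59, 1.14 and 2.13 in the controls, from 103 and 534 UMIs. The log2 fold change was -1.76 (standard error 0.33, edgeR adjusted p 0.0526); it went below 0.05 with DESeq2, with no filter on low counts and without the second control library. Adventitial fibroblasts had 0.838, 1.09 and 0.574 against 2.99, 1.61 and 3.43 (-1.66). Rpl3l was near the filter on low counts there, and not all p16-DTR-labelled libraries reached it, so no test is given. In aerocytes the fold change was -1.23, from only 73 UMIs in all libraries, also near the filter, and it carries no weight. Fold changes were -1.12 in general capillary endothelium and -0.48 in neutrophils, where the values were 5.78, 5.73 and 6.08 against 9.40, 8.17 and 8.99. In nonclassical monocytes, where Rpl3l was most abundant, the groups overlapped (-0.14, adjusted p 0.901), and classical monocytes had 0.24. Rps2 and Ndufb10, its upstream neighbours, were higher in 9 and 8 of 19 types, and Msrb1, the nearest gene, in 17 of 19 (median 0.14). Its parent Rpl3 was not called in any type.

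For 3 further genes the values of 1 cell type are given, none of them called by edgeR. Rps27l in alveolar type 1 cells had 189, 144 and 146 CPM against 98.7, 129 and 96.2 (log2 fold change 0.60, standard error 0.17, edgeR adjusted p 0.215, from 313 and 441 UMIs), while its parent Rps27 overlapped between groups (0.22, adjusted p 0.792). With no filter on low counts the adjusted p of Rps27l was 0.0479. In CD4 T cells Rpl10, whose protein joins the large subunit late, had 1296, 1143 and 1138 against 1415, 1454 and 1359 (-0.26, standard error 0.07, adjusted p 0.0737). Rpl35, also near the tunnel exit, was lower in 15 of 19 types; in neutrophils it had 121, 115 and 125 against 176, 162 and 169 (-0.37, standard error 0.08, adjusted p 0.174), and DESeq2 called it lower there. All 3 were picked after their values were seen.

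Some ribosomal protein genes are missed by the symbol rule. Fau (a ubiquitin-like protein fused to a small-subunit protein) was higher in lymphocytes than in endothelium, with a log2 difference of 2.11 (edgeR adjusted p 3.33e-43), and so was Rack1, a scaffold on the small subunit (2.11, adjusted p 2.12e-41). Rpl36al (1.57, adjusted p 9.19e-36) and Rps27rt (2.25, adjusted p 5.37e-40) were higher too. None of these 4 was called between groups in any of 19 types. Rps27rt was higher in 19 of 19 types (median log2 fold change 0.35) and Rpl36al in 16 of 19 (median 0.20, without overlap in 11, smallest edgeR adjusted p 0.0598). Fau was higher in 13 and Rack1 in 10 of 19. Rps27rt and Rpl36al resemble Rps27 and Rpl36a closely, and how reads were divided between them is not known.

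Other genes with TOP messengers, which encode translation factors such as Eef1a1 and Eef2, were also higher in lymphocytes: 21 of 21, against 42.0% of all genes, with a median log2 difference of 1.34; Fau and Rack1 stand in this list too. Between groups none of their 399 tests was called, with 35 higher and 6 lower at an unadjusted p under 0.05, against 6.79% and 7.13% of all gene tests. Of 24 ribosome biogenesis genes, 21 were higher in lymphocytes and none lower. Of 77 mitochondrial ribosomal proteins 38 were higher and 26 lower (median 0.08), and of 17 mTOR regulators 6 were higher and 9 lower. With 42.0% of all genes higher and 45.0% lower, neither list is read as a result of its own.

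Between groups a few calls fell in these lists. Nop58, a core protein of the particles that methylate ribosomal RNA, fell in 3 types. In venous endothelium it had 78.5, 94.3 and 88.2 CPM in the p16-DTR-labelled libraries against 200, 145 and 164 in the controls (log2 fold change -0.94, edgeR adjusted p 0.0127), in alveolar fibroblasts 138, 149 and 130 against 316, 212 and 276 (-0.92, 0.0426), and in peribronchial fibroblasts 231, 220 and 230 against 383, 278 and 375 (-0.57, 0.0430). Gnl3, the nucleolar GTPase nucleostemin, rose in peribronchial fibroblasts (57.7, 66.4 and 87.3 against 36.5, 47.9 and 44.5; 0.75, adjusted p 0.0494) and fell in CD4 T cells (50.9, 49.8 and 46.7 against 62.4, 70.3 and 62.9; -0.43, adjusted p 0.0257). These 5 calls, 1 higher and 4 lower, were all that 446 tests of the biogenesis list gave, against 0.267% and 0.375% of all gene tests. Within the types concerned the share of all genes called in either direction was higher, at 2.13% in venous endothelium, 1.01% in alveolar fibroblasts, 2.29% in peribronchial fibroblasts and 4.34% in CD4 T cells.

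Of the mTOR list (319 tests), Pdcd4, an inhibitor of the helicase eIF4A, rose in CD4 T cells (625, 636 and 714 against 506, 549 and 523; log2 fold change 0.30, edgeR adjusted p 0.0479), and Rptor, a subunit of mTORC1, fell in natural killer cells (215, 199 and 171 against 265, 306 and 320; -0.63, adjusted p 0.0210). Of the p53 surveillance list (171 tests), which also holds Rpl5, Rpl11, Rpl23 and Rps27l, Cdkn1a, the p53 target that encodes p21, rose in alveolar type 1 cells (151, 62.5 and 95.4 against 43.3, 39.6 and 34.9; 1.47, adjusted p 0.0352) and fell in CD4 T cells (40.1, 45.0 and 38.3 against 94.3, 116 and 76.0; -1.23, adjusted p 0.00585). In 1460 tests of mitochondrial ribosomal proteins, Mrpl43 alone was called, higher in CD4 T cells (44.4, 46.5 and 42.8 against 33.8, 31.9 and 35.6; 0.38, adjusted p 0.0486). In natural killer cells 0.845% of all genes were called, and in alveolar type 1 cells 0.113%. The 10 calls of these lists kept their direction in every alternative, but only Nop58 in venous endothelium and Cdkn1a in CD4 T cells were called in all 6 fits without 1 library. The other 8 were lost without single libraries of both groups, with adjusted p up to 0.182, and 5 of the 10 were called with the replicate block (not Nop58 in venous endothelium, where the adjusted p was 0.0624). None of 246 tests of mitochondrially encoded genes was called, with 42 higher and 6 lower at an unadjusted p under 0.05, against 6.79% and 7.13% of all gene tests.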

How the data were processed

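Gene expression in lung cells was measured with the 10x Genomics GEM-X 3′ v4 kit, per the labels. What was deposited are raw counts of UMIs for each gene and barcode, not normalized; per the file headers and the submitters' processing notes the authors wrote them with Cell Ranger 8.0.1, on mm10 per those notes. The annotation release and the settings of cell calling are not given in the sources used here. Positions are from GENCODE M21 (GRCm38), which held the identifiers of 83 of 83 members and of 30934 of 31054 features.

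A barcode was retained from 300 genes and 500 UMIs upward, if mitochondrial transcripts made up no more than 15%. Each was given the cell type with the highest mean marker level (scaled to 10000 UMIs per cell, each marker divided by its percentile 99.9), when this score was at least 0.3 and led the next type by 0.05; 1739 cells with markers of another lineage at 0.35 or above were left out, which stands in for removal of doublets. Levels are CPM, UMIs per 1e6 UMIs of a library or of a cell type in a library.

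UMI counts were summed per library and type and tested with the edgeR 4.0.16 quasi-likelihood test (R 4.3.3, filterByExpr, TMM), with Benjamini-Hochberg adjustment over all genes of a fit at 0.05, for types with at least 50 cells in each library. Arterial endothelium, with 47 cells in its smallest library, was below this limit and entered only the comparison of lymphocytes with endothelium. Standard errors were derived from the F statistic. The code was tested on simulated counts. Python 3.11.15, numpy 2.4.6, pandas 2.3.3 and scipy 1.17.1 were used. Labels call the libraries samples of single mice. In the comparison of the groups p-values measure the spread between these 3 against 3 libraries. In lymphocytes against endothelium they measure the spread left among types of a library, after type and library are accounted for. They say nothing of 3 against 3 mice there.

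Alternatives were RLE or library-size scaling, DESeq2 1.42.0, no filter on low counts, stricter cells (1000 UMIs, 5% mitochondrial), a stricter gate (lead 0.15), a mean over cells, UMIs other than mitochondrial as the total, the replicate block, no library block, every deposited barcode, and each library left out. The members, lists and tests were chosen with earlier results of these data known. Named by rule are all paralogs, the 5 highest and 5 lowest members, the 5 smallest p in all cells, the 5 largest and 5 smallest lymphocyte differences, Fau, Rack1 and up to 3 called genes per list; others are said to be picked. Some genes that this rule takes are not reported here.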

Additional observations from a re-analysis of the deposited data

Results flagged for a closer look

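The summed share of the 83 ribosomal protein genes separated the groups in 3 of 19 tested cell types, in opposite directions. In the other tested types the groups overlapped. Such a separation of 3 libraries from 3 has an exact permutation p of 0.1. In B cells every p16-DTR-labelled library lay above every control, with a difference of 1.48 percentage points between group means, and in classical monocytes likewise, by 0.530 percentage points. In neutrophils every p16-DTR-labelled library lay below every control, by -0.510 percentage points. Averaged over cells in place of pooled UMIs, the groups overlapped in B cells (difference 1.14) and neutrophils (0.000347) and not in classical monocytes (0.425). Pericytes overlapped with pooled UMIs but not when averaged over cells (0.326). The difference between B cells, classical monocytes and neutrophils was not tested, and these 3 types come from the same libraries.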

How the results depend on the processing

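Of the counts of called genes and the summed shares, 470 values under the alternatives kept the main result and 27 moved. A count kept it when it stayed equal or within a fixed ratio of the main count. A summed share kept it when its group difference moved by less than the SD within groups, even if the sign turned. Of the values of named genes 586 kept their sign and their side of the threshold, and 20 passed the threshold that had not. DESeq2 moved the count of called genes from 0 to 9 over all retained cells, and to 25 over the 19 cell types together: 7 in general capillary endothelium, 4 in aerocytes, 1 each in alveolar fibroblasts, classical monocytes and neutrophils, 9 in B cells and 2 in CD4 T cells. With no filter on low counts 6 were called in all: 1 each in general capillary endothelium, aerocytes, alveolar type 1 cells and alveolar fibroblasts, and 2 in CD4 T cells. Leaving out 1 library gave 0 to 1 over the cell types together, 0 to 1 in alveolar fibroblasts (Rpl3l without the second control) and 0 to 1 in CD4 T cells (Rpl10 without the first p16-DTR-labelled library). The number lower in lymphocytes than in endothelium was 1 with the stricter gate and 1 to 2 without 1 library; it was 1 without the first control, the third control or the third p16-DTR-labelled library, where Rpl3l did not pass the filter.

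The difference in summed share over all retained cells was 0.0627 percentage points at the composition of all 6 libraries. In pericytes the difference was 0.163 with pooled UMIs and overlapping groups, and 0.326 without overlap when averaged over cells. In neutrophils it was 0.000347 averaged over cells and -0.104 with the stricter gate. Averaging over cells also turned its sign in alveolar type 2 cells (-0.138 pooled, 0.129 averaged) and ciliated cells (0.0226 pooled, -0.115 averaged). Both moves were smaller than the SD within groups and were counted as kept. Signs turned for Rpl27 in neutrophils with library-size scaling (-0.00193), for Rpl3l in classical monocytes without the first p16-DTR-labelled library (-0.0665; range without 1 library -0.0665 to 0.378) and in nonclassical monocytes without the second control (0.0652; range -0.311 to 0.0652), and for Rpl22l1 over all cells with library-size scaling (-0.0128), without the second control (-0.0338) and without the third p16-DTR-labelled library (-0.0263; range without 1 library -0.0338 to 0.0864). The cause was not tested. The labels do not say that replicate numbers pair the mice, and not every pair passed 0.1: deviations of same-numbered libraries correlated at 0.293, -0.0464 and 0.308. With the replicate block 0 ribosomal protein genes were called over all cells and 0 over the cell types. Depth limits Rpl39l, Rpl10l and, outside myeloid cells, Rpl3l, and the median of 1629 UMIs per cell limits alveolar type 1 cells.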

Other observations

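The make-up of the ribosomal protein transcripts differed between cell types beside their sum. Rps9 was highest in classical monocytes (2866 CPM) and made up 4.57% of the ribosomal protein UMIs of neutrophils against 1.09% in alveolar type 1 cells. Rpl41 made up 5.08% in ciliated cells and 1.10% in CD8 T cells, and Rplp1 3.91% in platelets or megakaryocytes and 1.63% in neutrophils. Rpl21 made up 3.56% in alveolar type 2 cells and 1.28% in alveolar macrophages. Rpl10 was highest in type 2 conventional dendritic cells (2310 CPM) and lowest in alveolar type 1 cells (331). These are descriptions over 6 libraries, without a test, and genes were picked for the values.

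Basophils, with 12 cells in the smallest library and so not tested, had summed shares of 8.94%, 8.32% and 8.43% in the p16-DTR-labelled libraries and 8.08%, 8.15% and 8.22% in the controls, without overlap. Averaged over cells, they were 8.65%, 7.97% and 8.22% against 8.22%, 8.03% and 7.71%, and the groups overlapped. Pdpk1 and Kctd5, which were higher in 19 of 19 types, lie on the same chromosome as Rpl3l, 576896 and 654335 bases away; edgeR called them in 8 and 2 types.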
